A study of Mus musculus with 21 samples.

Results

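Respiratory complex I, the NADH:ubiquinone oxidoreductase of the mitochondrial inner membrane, was followed here through 46 genes whose symbols start with Nduf. They were all protein-coding genes with such a symbol that had at least 10 counts in at least 3 of the 21 libraries. The count table lists 54532 genes, among them 51 Nduf symbols, of which 5 are pseudogenes or non-coding. All 46 coding genes passed the count rule, and all 46 also passed the filter on low counts that left 22935 genes for testing. Ndufa4l2 lay at the edge of the rule, with at least 10 counts in 10 of the 21 libraries, while the other 45 genes had at least 10 counts in every library.

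The libraries are bulk RNA-seq of myeloid cells sorted by flow cytometry from collagenase-digested adipose tissue of male C57BL/6 mice after 16 weeks on a high fat diet (obese) or a normal diet (lean). There were 7 groups of 3 libraries, namely obese and lean monocyte-derived cells, obese MHCII+CD11c+ macrophages, obese and lean MHCII+CD11c- macrophages, and obese and lean MHCIIlow macrophages. CD11c+ macrophages came from obese mice only, and no age is given. The labels do not say that replicates are separate animals, so every p-value measures the spread between these samples, which may be technical. In bulk libraries, fewer cells that make an RNA and less of it per cell cannot be told apart.

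Library totals ran from 11245851 to 35568948 counts. Replicates of lean monocyte-derived cells, which include the library of lowest total, agreed least (r between libraries 0.904 to 0.942, against 0.972 to 0.990 in the other groups). The macrophage marker Adgre1 averaged 893 CPM in obese and 405 CPM in lean MHCIIlow macrophages, and 974 CPM in obese and 474 CPM in lean CD11c- macrophages. In monocyte-derived cells it averaged 225 CPM in obese and 112 CPM in lean samples. The summed level of all 6 macrophage markers (CPM of the library total) did not follow Adgre1. It was 6562 to 7018 CPM in obese and 6779 to 7587 CPM in lean MHCIIlow macrophages, and 5198 to 5890 CPM in obese and 6344 to 6507 CPM in lean CD11c- macrophages. Of the 6 markers, 2 were higher and 0 lower with diet in MHCIIlow macrophages, and 3 were higher and 1 lower in CD11c- macrophages. Itgax, which encodes CD11c, averaged 586 CPM in obese CD11c+ and 84.8 CPM in obese CD11c- macrophages.

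Complex I takes electrons from NADH, passes them through a flavin and a chain of iron-sulfur clusters to ubiquinone, and pumps protons across the inner membrane. Its catalytic core is made of subunits from nuclear genes and of hydrophobic subunits from mitochondrial DNA, and accessory subunits and assembly factors surround and build it. The nuclear core subunits include Ndufv1, which binds NADH and the flavin, Ndufv2, Ndufs1 and Ndufs8, which carry iron-sulfur clusters, Ndufs3, and Ndufs7 at the quinone site. In macrophages, the balance between oxidative phosphorylation and glycolysis is known to shift with activation.

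The sequences before the transcription start were searched for motifs of factors known to act on respiratory genes. RefSeq promoters on GRCm38.p6, each with 250 bases before and 50 bases after the start, matched 40 of the 46 genes. Both strands were searched for the letters GCGCATGCG, a core of the site of nuclear respiratory factor 1. A gene was counted if any of its promoters held the letters. They occurred in 4 of the 40 genes, against 1.95% of all 27025 genes with a promoter and 3.31% of the tested genes among these. In Ndufa11, Ndufa8 and Ndufaf4 the match lies before the RefSeq start, and in Ndufaf5 after it. GENCODE M21 starts Ndufa8 further upstream, at base 36049406. By that annotation its match and part of the stretch shown lie inside the gene. The 120 bases before the RefSeq start are shown for the 3 genes whose match lies there, with the match in capitals. They were picked after the matches were seen. Where the capitals run to 10 letters, the palindromic motif matches on both strands at neighbouring positions.
Ndufa11 (chr17:56717642-56717761, + strand): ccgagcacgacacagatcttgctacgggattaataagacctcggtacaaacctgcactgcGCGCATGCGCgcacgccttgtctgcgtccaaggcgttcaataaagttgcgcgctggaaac
Ndufa8 (chr2:36049339-36049458, - strand): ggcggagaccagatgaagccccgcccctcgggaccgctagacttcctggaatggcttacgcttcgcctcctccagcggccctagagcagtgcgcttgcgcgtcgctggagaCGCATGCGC
Ndufaf4 (chr4:24897963-24898082, + strand): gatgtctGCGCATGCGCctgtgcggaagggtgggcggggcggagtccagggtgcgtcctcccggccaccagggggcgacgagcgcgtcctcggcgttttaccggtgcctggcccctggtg

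The match ends 51 bases before the RefSeq start in Ndufa11, 1 base before it in Ndufa8 and 104 bases before it in Ndufaf4. The ETS letters CCGGAAG, bound by the GABP factor, occurred in 6 of the 40 genes (15.0%), near the 16.3% of tested genes with a promoter. The letters AAGATGGCG, a form of the YY1 site, also occurred in 6 (15.0%), against 2.78% of tested genes with a promoter. All 6 of these matches lay after the start. The letters TCAAGGTCA, bound by estrogen-related receptors, occurred in none of the 40, and in 0.331% of tested genes with a promoter. A match describes letters only, and no binding was measured here.

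Summed over the 46 genes, expression was highest in obese CD11c+ macrophages. Levels are given as CPM, the counts scaled to library size with TMM factors, unless stated. The sum was 753, 846 and 838 CPM in the 3 libraries of obese CD11c+ macrophages, against 592, 632 and 661 CPM in obese CD11c- macrophages. Obese CD11c- macrophages in turn lay above lean CD11c- macrophages, which had 393, 447 and 317 CPM. MHCIIlow macrophages had 604, 669 and 662 CPM in obese mice, against 469, 363 and 408 CPM in lean mice. Monocyte-derived cells had 608, 544 and 637 CPM in obese mice, against 519, 569 and 409 CPM in lean mice. The obese and lean libraries of each macrophage population did not overlap, while those of monocyte-derived cells did. By group mean, 40 of the 46 genes were highest in obese CD11c+ macrophages, and 28 were lowest in lean CD11c- and 12 in lean MHCIIlow macrophages. The sums of obese CD11c-, obese MHCIIlow and obese monocyte-derived libraries overlapped one another.

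**Figure D1:**
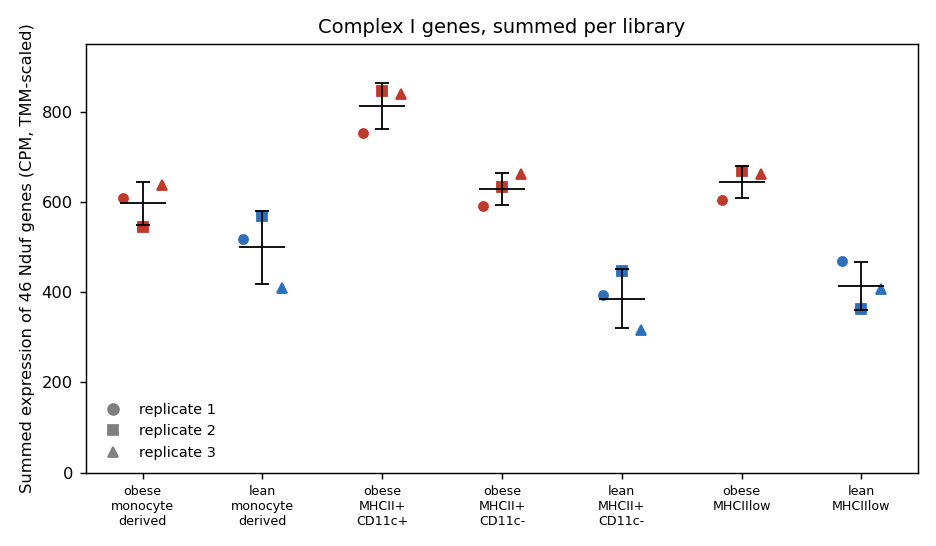
Summed expression of the 46 genes (CPM, TMM-scaled) in each library by group, with obese libraries in red and lean in blue; marker shapes give the replicate, and bars the mean ± SD (n = 3). Obese CD11c+ libraries lie at 753 to 846 CPM, and the 6 lean macrophage libraries at 317 to 469 CPM.

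The genes differed widely in level. On the scale of CPM per kilobase of exon, averaged over the 7 groups, Ndufa1 was highest at 23.8 and Ndufa4l2 lowest at 0.43. The 7 core subunits ranged from 4.26 to 18.5 with a median of 8.51. The 8 assembly factors named Ndufaf1 to Ndufaf8 ranged from 0.863 to 4.33 with a median of 1.45. By median, assembly factors thus stood below the core subunits. Their ranges overlapped, with Ndufaf8 at 4.33 and the core subunit Ndufs1 at 4.26. Accessory subunits had medians of 5.08 to 8.84 by class, and reached down to 1.23 for Ndufab1. Exon length here is the union of all annotated exons of a gene, not the length of a transcript.

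The diet comparison in MHCIIlow macrophages asked how obesity goes with expression in macrophages low in MHC class II. Of the 46 genes, 30 were higher in obese than in lean samples and 0 were lower. The test was edgeR's quasi-likelihood F test, called at a Benjamini-Hochberg adjusted p under 0.05 over all tested genes. Across all tested genes the same rule called 16.8% higher and 13.8% lower. The median log2 change was 0.65 over the 46 genes and -0.07 over all tested genes, and all 46 estimates were above 0. In 40 of the 46 genes, every obese library was above every lean library. The same share was not taken over all tested genes, so this count describes the 46 genes only. Many tested genes are weakly expressed, so shares were also taken over the 8203 genes with a mean of at least 10 CPM. There, 34.0% of all genes and 22 of 26 Nduf genes were higher. TMM factors taken from those genes alone left 17 of the 46 genes higher and turned the split over all genes to 1989 higher and 4872 lower, against 3864 and 3166. Leaving out single libraries gave 15 to 29 genes, with 15 when obese library 3 or lean library 2 was left out, 17 when obese library 2 was, and 19 when lean library 3 was.

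All 7 core subunits were higher in obese MHCIIlow macrophages. Ndufs1, the largest iron-sulfur subunit, had 39.2, 42.1 and 38.0 CPM in obese samples, against 26.5, 24.4 and 25.7 CPM in lean samples. Its groups lay far apart for their spread, with a log2 change of 0.64 ± 0.10 (SE) and an adjusted p of 0.000127 by edgeR. Every obese library exceeded every lean library. Other core subunits had log2 changes from 0.49 (Ndufv1) to 0.92 (Ndufs7).

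Accessory subunits, which encase the core and are needed for its stability, gave 8 of 12 higher among the Ndufa genes and 7 of 10 among the Ndufb genes. Of the 7 others (Ndufab1, Ndufc1, Ndufc2, Ndufs4, Ndufs5, Ndufs6 and Ndufv3), 5 were higher. Ndufa8, a subunit of the membrane arm, rose most of the called genes, by 1.06 ± 0.25 on the log2 scale (SE, adjusted p = 0.00404 by edgeR). It had 16.1, 18.1 and 17.4 CPM in obese samples, against 8.76, 6.25 and 9.78 CPM in lean samples. Ndufb5, also of the membrane arm, had 16.2, 18.7 and 19.6 CPM in obese samples, against 11.6, 10.2 and 11.2 CPM in lean samples (log2 change 0.72). Ndufa10, another membrane arm subunit, had 32.5, 33.7 and 33.3 CPM in obese samples, against 19.9, 17.9 and 20.0 CPM in lean samples (log2 change 0.78). The obese samples of all 3 genes stood clear of the lean ones. Ndufb2 had 14.0, 11.4 and 12.4 CPM in obese samples, against 11.8, 9.69 and 12.9 CPM in lean samples, and was not called (log2 change 0.14).

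The assembly factors gave 2 of 8 higher. Ndufaf4, which acts early on the quinone module, had 3.62, 4.14 and 3.74 CPM in obese samples, against 2.14, 1.79 and 1.85 CPM in lean samples. Its log2 change was 0.99 ± 0.20 (SE, adjusted p = 0.00112 by edgeR), and its groups did not overlap. Ndufaf1, of the complex that assembles the membrane arm, changed by 0.83 on the log2 scale. The other 6 had log2 changes of 0.17 (Ndufaf7) to 0.64 (Ndufaf5) and were not called. Ndufa4, once counted to complex I and now to complex IV, was higher with a log2 change of 0.65. Its paralog Ndufa4l2, which in human cells is induced by hypoxia, stayed under 1 CPM in every library of all groups, and was not called (log2 change 0.16 ± 0.57, SE).

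In MHCII+CD11c- macrophages the diet comparison gave 34 of the 46 genes higher in obese samples and 0 lower, against 16.8% and 15.6% of all tested genes. The median log2 change was 0.75 over the 46 genes and -0.10 over all tested genes, with all 46 estimates above 0. Among genes of at least 10 CPM, 32.4% of all genes and 25 of 26 Nduf genes were higher. TMM factors from those genes gave 28 of the 46 higher, with 2455 higher and 4905 lower over all genes, against 3843 and 3580. Without lean replicate 3, 20 of the 46 were higher. The groups did not overlap in 40 of the 46 genes, again without a share over all tested genes beside it. The 2 macrophage diet comparisons share no library, but they are not independent, since obese libraries of equal number deviated together (r 0.327 to 0.679). In these comparisons 29 genes passed the test in both, 1 in MHCIIlow alone, 5 in CD11c- alone and 11 in neither. The share of all tested genes that passed in both was not taken. In the test of the difference between the 2 diet effects, 0 of the 46 genes and 0% of all tested genes passed in either direction, and 0 of the 46 had an unadjusted p under 0.05 (DESeq2 also called 0 of the 46).

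All 7 core subunits were again higher. Ndufs7, which carries the last iron-sulfur cluster before the quinone, had 14.9, 20.0 and 19.4 CPM in obese samples, against 9.52, 10.5 and 6.85 CPM in lean samples, the largest log2 change among the core at 1.01. Ndufs1 had 35.6, 39.3 and 38.5 CPM in obese samples, against 25.8, 25.7 and 24.9 CPM in lean samples (log2 change 0.57). Ndufv1 had 22.0, 24.4 and 20.7 CPM in obese samples, against 16.8, 14.2 and 13.0 CPM in lean samples (log2 change 0.61). None of these 3 genes had overlapping groups. Ndufs3 (0.74) and Ndufv2 (0.90) were likewise called, and their groups did not overlap.

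Among accessory subunits, 11 of 12 Ndufa genes, 8 of 10 Ndufb genes and 5 of the 7 others were higher. Ndufb5 had the smallest p of the 46 genes, with 19.1, 19.0 and 19.9 CPM in obese samples, against 10.8, 10.3 and 8.77 CPM in lean samples. Its log2 change was 0.96 ± 0.14 (SE, adjusted p = 3.49e-05 by edgeR), far outside the spread of either group. Part of its exon sequence (12.3%) overlaps Mrpl47 on the other strand. Ndufa3, a small membrane arm subunit, had the largest called change, 1.08 ± 0.27 on the log2 scale (SE). It had 12.2, 13.5 and 17.2 CPM in obese samples, against 7.74, 8.83 and 3.66 CPM in lean samples. Assembly factors gave 2 of 8 higher, Ndufaf4 (log2 change 0.89) and Ndufaf5 (0.88), which in human cells modifies an arginine of the Ndufs7 protein. Ndufa4 was higher, with a log2 change of 0.86. Ndufaf7, an arginine methyltransferase in human cells, had 5.66, 6.03 and 6.84 CPM in obese samples, against 7.19, 5.48 and 5.35 CPM in lean samples. Its log2 change was 0.04, the smallest of the 46.

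**Figure D2:**
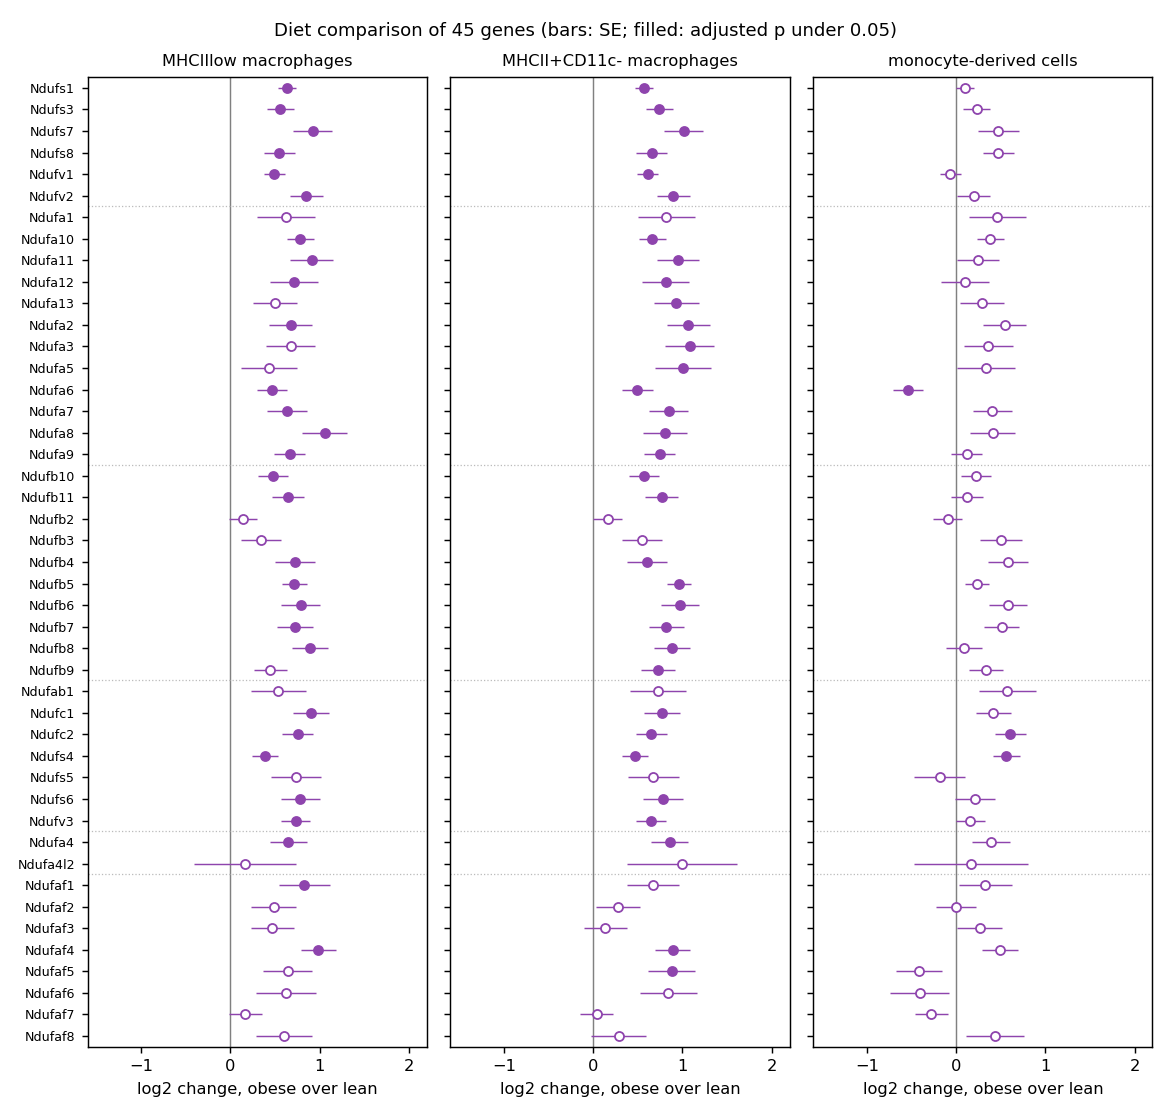
Log2 change, obese over lean, of 45 of the 46 genes in the 3 populations, with SE bars and filled points at an adjusted p under 0.05; dotted lines part core, Ndufa, Ndufb and other accessory subunits, Ndufa4 with Ndufa4l2, and assembly factors. All points of both macrophage populations lie above 0, and most do in monocyte-derived cells.

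Other cell markers and library traits also differed by diet in the macrophages, and their part in these results was not tested. Library totals were 30083259 to 35568948 counts in obese and 20783760 to 21530356 in lean MHCIIlow macrophages. In CD11c- macrophages they were 26648301 to 31056402 in obese and 22398499 to 25914583 in lean samples. With all libraries brought to the lowest total, obese MHCIIlow libraries showed 24107 to 24712 genes and lean ones 29212 to 32668. Obese CD11c- libraries then showed 23989 to 24215 genes and lean ones 25928 to 29368. List sums here are CPM of the library total. The 8 proliferation genes summed to 604 to 623 CPM in obese and 250 to 318 CPM in lean MHCIIlow macrophages, and 7 of the 8 were higher. In CD11c- macrophages they summed to 589 to 686 CPM in obese and 306 to 393 CPM in lean samples, again with 7 of 8 higher. The 10 adipocyte markers summed to 8.64 to 11.4 CPM in obese and 42.3 to 55.7 CPM in lean MHCIIlow macrophages, with 8 lower. In CD11c- macrophages they summed to 11.2 to 13.3 CPM in obese and 52.1 to 66.0 CPM in lean samples, with 7 lower. Of the 8 T and NK cell markers, 7 were lower in obese MHCIIlow and 5 in obese CD11c- macrophages. Their sums were 3.99 to 5.98 CPM in obese and 12.6 to 20.9 CPM in lean MHCIIlow macrophages, and 3.93 to 4.32 CPM in obese and 11.8 to 16.6 CPM in lean CD11c- macrophages. The 1967 olfactory and vomeronasal receptor genes (Olfr and Vmn) summed to 34.2 to 56.1 CPM in obese and 159 to 249 CPM in lean MHCIIlow macrophages. In CD11c- macrophages they summed to 28.9 to 35.1 CPM in obese and 73.0 to 142 CPM in lean samples. Of the 8 fibroblast markers, 3 were higher in each population. They summed to 1194 to 2593 CPM in obese and 1020 to 1355 CPM in lean MHCIIlow macrophages, and to 1234 to 2730 CPM in obese and 874 to 1262 CPM in lean CD11c- macrophages. Dendritic cell markers gave 3 of 7 lower in each population. In MHCIIlow and CD11c- macrophages, 3 and 2 of 5 mesothelial, 3 and 1 of 5 B cell, and 3 and 1 of 4 monocyte markers were lower. None of the 6 endothelial markers was called by edgeR. No marker of any of these cell type lists was at 0 in all libraries of a group.

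Nduf transcripts are short, and short genes shifted with diet as a class. The median exon length was 1643.5 bases over the 46 genes, against 5203 bases over coding genes of at least 10 CPM. Among the 1920 shortest of those coding genes (243 to 3383 bases), 43.2% were higher in obese MHCIIlow macrophages and 44.3% in obese CD11c- macrophages, with a median log2 change of 0.38 in both. Of the 22 Nduf genes in that length class, 19 were higher in MHCIIlow and 22 in CD11c- macrophages, with medians of 0.66 and 0.73. The length classes were set after the results were seen.

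Subunits encoded by mitochondrial DNA were not called with diet in the macrophages. None of mt-Nd1 to mt-Nd6 and mt-Nd4l passed the edgeR test in either macrophage population, with a median log2 change of 0.02 in MHCIIlow and 0.33 in CD11c- macrophages. Their sum was 4268, 4405 and 4782 CPM in obese MHCIIlow macrophages, against 4518, 4376 and 4695 CPM in lean ones, and the groups overlapped. In CD11c- macrophages it was 3861, 4831 and 5624 CPM in obese samples, against 3546, 4533 and 3091 CPM in lean samples, which also overlapped. The difference between nuclear and mitochondrial genes was not itself tested.

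Nuclear genes of complexes II to V, the other respiratory complexes and the ATP synthase, moved much as the Nduf genes did. Of 45 tested, 31 were higher in obese MHCIIlow and 33 in obese CD11c- macrophages, with 0 lower and medians of 0.65 and 0.72. Assembly factors of complex I outside the Nduf symbols gave 3 of 9 higher in each population, namely Acad9, Timmdc1 and Tmem70. Acad9, which acts with Ndufaf1, had log2 changes of 0.57 and 0.53 in MHCIIlow and CD11c- macrophages. Of 12 regulators of mitochondrial biogenesis, Polrmt (mitochondrial RNA polymerase), Tfb2m (its initiation factor) and Esrra (a nuclear receptor) were higher in both populations. That is 3 of 12, with 1 lower in MHCIIlow and 3 lower in CD11c- macrophages, and it does not set the list apart from the share of all genes of at least 10 CPM. Polrmt changed by 0.77 in MHCIIlow and 0.81 in CD11c- macrophages. Pprc1, a relative of the coactivator PGC-1, was lower in both, at -0.50 and -0.61. Polg and Twnk, of mitochondrial DNA replication, were lower in CD11c- macrophages, at -0.40 and -0.87. Nrf1, which encodes nuclear respiratory factor 1, had log2 changes of -0.16 and -0.01 and was not called.

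**Figure D3:**
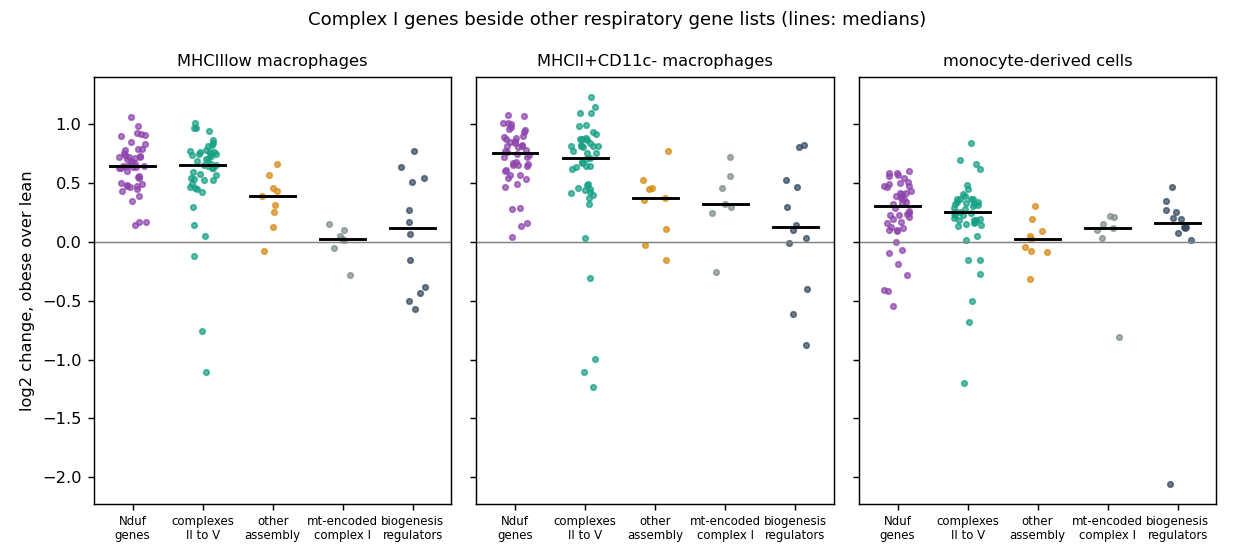
Log2 change, obese over lean, of each gene of 5 lists in the 3 populations, with lines at the medians. Nduf genes (medians 0.65 and 0.75) and complexes II to V (0.65 and 0.72) lie alike in both macrophage populations, above the subunits from mitochondrial DNA (0.02 and 0.33).

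In monocyte-derived cells only 3 genes passed in the diet comparison, 2 higher (background 7.45%) and 1 lower (background 9.75%). The median log2 change was 0.31 over the 46 genes and -0.05 over all tested genes, and 38 estimates were above 0. Ndufs4, an accessory subunit close to the NADH-binding module, had 15.0, 14.7 and 17.0 CPM in obese cells, against 10.1, 12.8 and 8.48 CPM in lean cells (log2 change 0.56 ± 0.15, SE, adjusted p = 0.0153 by edgeR). Ndufc2, of the membrane arm, had 16.2, 13.0 and 15.4 CPM in obese cells, against 11.7, 10.7 and 6.76 CPM in lean cells (log2 change 0.60). Ndufa6, an accessory subunit that binds the acyl carrier protein Ndufab1, went the other way. It had 16.6, 12.3 and 17.4 CPM in obese cells, against 25.7, 18.1 and 23.6 CPM in lean cells, a log2 change of -0.54 ± 0.17 (SE, adjusted p = 0.0352 by edgeR). None of these 3 genes had overlapping groups, but none of them was called in a fit of the monocyte-derived libraries alone. The count depended on single libraries. There were 16 genes higher when lean library 2 was left out, 11 when obese library 2 was, and 0 when lean library 3 was. The number of all genes called higher moved with them, to 4254, 2628 and 965 in those fits. Ndufa6 kept its call in 1 of those 6 fits, the one lacking lean library 2. TMM factors from genes of at least 10 CPM gave 939 genes higher and 3257 lower over all genes, against 1708 and 2236. Of the core subunits 0 of 7 were called, with log2 changes from -0.07 (Ndufv1) to 0.47 (Ndufs7 and Ndufs8). Of complexes II to V, 1 of 45 was higher and 0 lower. Among subunits from mitochondrial DNA, mt-Nd3 was lower (-0.81, adjusted p = 0.00968 by edgeR). Marker lists moved here too. Fibroblast markers gave 4 of 8 higher, with sums of 849 to 2040 CPM in obese and 480 to 618 CPM in lean cells. Macrophage markers gave 4 of 6 higher, with sums of 1765 to 2316 CPM in obese and 1059 to 2124 CPM in lean cells. The Olfr and Vmn sum was 84.7 to 183 CPM in obese and 334 to 1228 CPM in lean cells. The part of these lists in the result was not tested.

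The diet effect was tested for a difference between monocyte-derived cells and CD11c- macrophages. Relative to CD11c- macrophages it was lower in monocyte-derived cells for 4 of the 46 genes and higher for 0, against 2.51% and 3.86% of all tested genes. The median difference was -0.45 over the 46 genes and -0.03 over all tested genes. Genes of complexes II to V stood near the Nduf genes, with a median difference of -0.42, and 1 of 45 was lower and 0 higher. Of the 8 proliferation genes, 7 were lower and 0 higher (median -1.31), and their part was not tested. The 4 Nduf genes were Ndufa6 (-1.04 ± 0.24), Ndufaf5 (-1.30 ± 0.37), Ndufb5 (-0.72 ± 0.19) and Ndufv1 (-0.68 ± 0.17), as log2 differences with SE and adjusted p of 0.0149 to 0.0411 by edgeR. Ndufv1 had 23.2, 21.9 and 22.6 CPM in obese monocyte-derived cells, against 24.1, 24.4 and 22.5 CPM in lean ones, where the groups overlap. Ndufaf5 had 3.04, 2.58 and 3.62 CPM in obese monocyte-derived cells, against 4.73, 2.70 and 5.05 CPM in lean ones. In CD11c- macrophages the same gene had 2.69, 2.67 and 2.62 CPM in obese samples, against 1.15, 1.77 and 1.42 CPM in lean samples. Ndufb5 had 19.8, 17.2 and 19.8 CPM in obese monocyte-derived cells, against 16.1, 18.9 and 13.0 CPM in lean ones. None of the 4 was called in a fit of the 4 groups alone or with the replicate block.

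**Figure D4:**
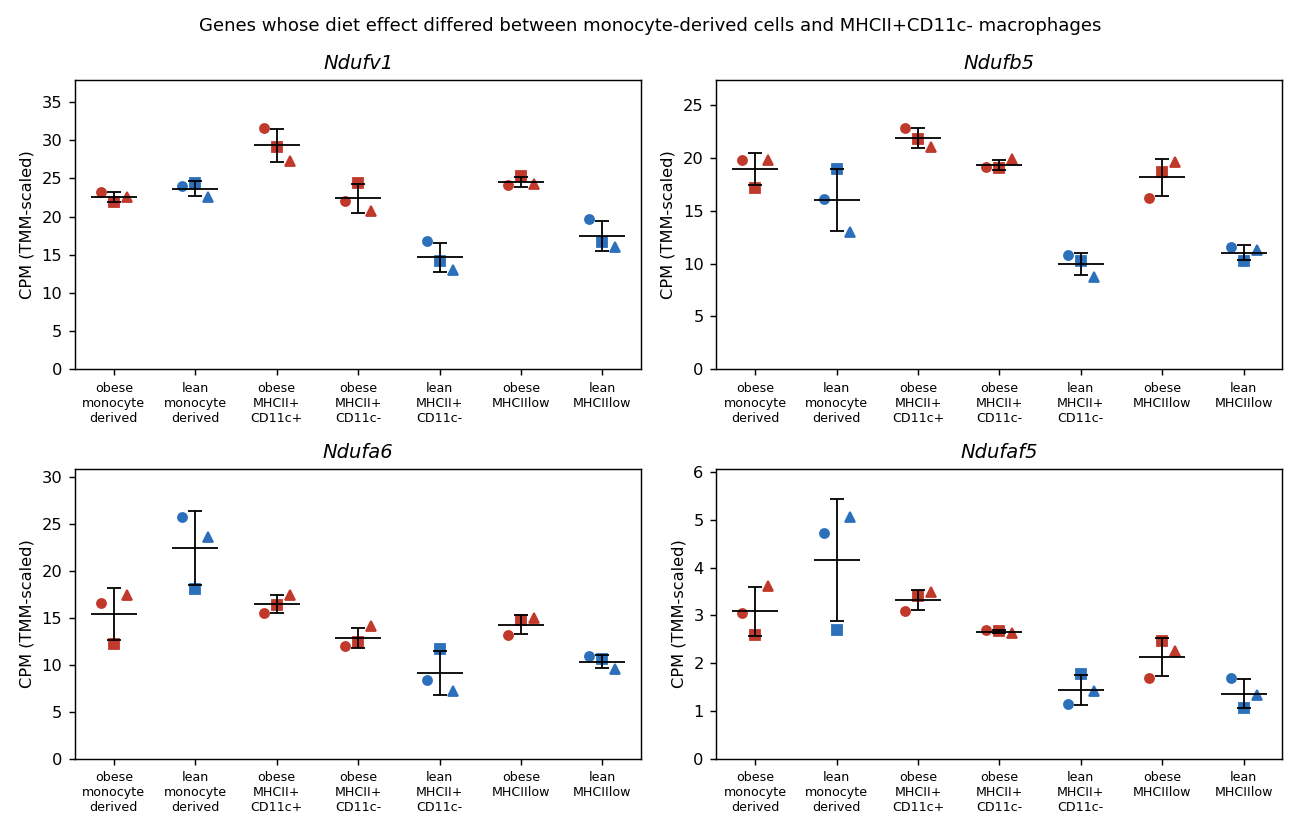
Expression (CPM, TMM-scaled) of Ndufv1, Ndufb5, Ndufa6 and Ndufaf5 in each library by group, obese in red and lean in blue, with mean ± SD (n = 3). Lean monocyte-derived cells lie above lean CD11c- macrophages in every library, for Ndufa6 at 18.1 to 25.7 CPM against 7.22 to 11.7 CPM.

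Among lean samples, 14 of the 46 genes were higher in monocyte-derived cells than in CD11c- macrophages and 0 were lower, against 23.6% and 20.1% of all tested genes. The share higher was near the background, while the share lower was below it. Among genes of at least 10 CPM, 10 of 26 Nduf genes and 23.4% of all genes were higher. There, 0 of the 26 and 34.5% of all genes were lower. The genes of smallest p were Ndufa6 (log2 change 1.30), Ndufv1 (0.69), Ndufaf5 (1.51) and Ndufb5 (0.69), whose groups did not overlap. This comparison shares the lean libraries with the test above, so it is no separate evidence for those 4 genes. With only the 6 libraries compared in the fit, 4 of the 46 genes were higher. Without lean CD11c- replicate 3 there were 5, without lean CD11c- replicate 1 or 2 there were 8, and without lean monocyte-derived replicate 3 there were 22. The median log2 change was 0.42 over the 46 genes and 0.14 over all tested genes. Genes of complexes II to V stood near the Nduf genes, with 14 of 45 higher, 1 lower and a median log2 change of 0.40. Subunits from mitochondrial DNA gave 3 of 7 lower and a median log2 change of -0.50. In the same comparison 6 of 7 dendritic cell markers were higher, and 6 of 6 macrophage, 7 of 10 adipocyte and 6 of 8 fibroblast markers were lower. Of the 8 proliferation genes, 5 were higher and 1 lower. In lean monocyte-derived cells the dendritic markers summed to 401 to 1233 CPM, against 80.5 to 92.6 CPM in lean CD11c- macrophages. The macrophage markers had sums of 1059 to 2124 CPM in those cells, against 6344 to 6507 CPM in lean CD11c- macrophages. Their Olfr and Vmn sum was 334 to 1228 CPM, against 73.0 to 142 CPM in lean CD11c- macrophages. The part of these lists was not tested.

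Among obese samples, few Nduf genes were called between monocyte-derived cells and CD11c- macrophages, though many other genes were. Of the 46 genes 0 were higher and 1 was lower in monocyte-derived cells, against 11.0% and 12.8% of all tested genes, with a median of -0.06. The gene was Ndufs7, with 11.4, 9.04 and 12.5 CPM in monocyte-derived cells, against 14.9, 20.0 and 19.4 CPM in CD11c- macrophages (log2 change -0.72 ± 0.22, SE, adjusted p = 0.0199 by edgeR). Its groups did not overlap, but it was not called without obese monocyte-derived replicate 1 or 2 or obese CD11c- replicate 2 or 3. With the replicate number as a block it was again the only gene called, while 21.2% of tested genes were then higher and 22.3% lower. Of the 7 subunits from mitochondrial DNA, 6 were lower in obese monocyte-derived cells, with a median of -0.70. Of the markers, 6 of 7 dendritic, 4 of 4 monocyte, 4 of 5 B cell and 4 of 8 T and NK cell markers were higher. In turn, 6 of 6 macrophage and 4 of 10 adipocyte markers and 7 of 8 proliferation genes were lower. The part of these lists was not tested.

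Between CD11c- and MHCIIlow macrophages few genes of any kind were called, so a count of 0 says little about the Nduf genes. Among obese samples 0 of the 46 genes were higher and 0 lower in CD11c- than in MHCIIlow macrophages (background 1.19% and 1.85%), with a median of -0.02 and 1 gene at an unadjusted p under 0.05. Within pairs the summed level was 0.979, 0.945 and 0.999 times as high in CD11c- as in MHCIIlow macrophages for numbers 1, 2 and 3. In all 3 pairs 13 genes were lower and 7 higher, and the share over all genes was not taken. With the block, Ndufaf6, an assembly factor, was called higher (log2 change 0.74 ± 0.22, SE, adjusted p = 0.0458 by edgeR), against 7.83% of tested genes higher and 10.2% lower. It had 2.48, 1.88 and 2.05 CPM in CD11c- macrophages, against 1.43, 1.37 and 0.999 CPM in MHCIIlow macrophages. Among lean samples 0 were higher and 0 lower (background 1.05% and 0.253%), with a median of -0.12 and 1 gene at an unadjusted p under 0.05. DESeq2 called 0 of the 46 genes in both comparisons.

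CD11c+ macrophages, the population that accumulates in obese adipose tissue around dead adipocytes, were compared with CD11c- macrophages among obese samples. The fit to all libraries called 0 of the 46 genes higher and 0 lower, against 1.38% and 2.11% of tested genes. In that fit 44 of 46 estimates were above 0, and the median log2 change was 0.39 against -0.03 over all tested genes. There, 18 genes had an unadjusted p under 0.05, all higher. In 31 of the 46 genes every CD11c+ library lay above every CD11c- library. For these counts no share over all genes was taken, so they describe the 46 genes only. Ndufs1 came nearest the threshold (log2 change 0.36, adjusted p = 0.0506 by edgeR), and DESeq2 called 5 of the 46 genes higher, among 1258 higher over all genes (317 in edgeR).

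The labels give a number but do not say that obese libraries of equal number are paired. They were treated as pairs because they deviated together in these data, and the paired fit gave more calls. Deviations from the group mean correlated between CD11c+ and CD11c- libraries of equal number at 0.638 to 0.771. With the number as a block in a fit of these 6 libraries, 34 of the 46 genes were higher and 0 lower. This fit leaves far fewer residual degrees of freedom than the fit to all libraries. Its p-values also depend on a pairing taken from the same data. The block also raised the share of all 18216 genes tested, to 22.1% higher and 22.0% lower. Among genes of at least 10 CPM in those libraries, 34.5% of all genes and 23 of 29 Nduf genes were higher. The median log2 change in this fit was 0.36 over the 46 genes and -0.02 over all tested genes. Within pairs the summed level of the 46 genes was 1.27, 1.34 and 1.27 times as high in CD11c+ as in CD11c- macrophages for numbers 1, 2 and 3. In 41 of the 46 genes the CD11c+ library was the higher in all 3 pairs, and the share over all genes was not taken.

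By role, the block called 5 of the 7 core subunits higher. Ndufv2 had 27.9, 32.4 and 30.4 CPM in CD11c+ macrophages, against 19.4, 23.5 and 24.4 CPM in CD11c- macrophages (log2 change 0.41 in the block fit). The smallest p belonged to Ndufa13, an accessory subunit also known as GRIM-19. It had 28.2, 34.3 and 34.3 CPM in CD11c+ macrophages, against 18.5, 23.7 and 24.0 CPM in CD11c- macrophages, a log2 change of 0.53 ± 0.07 (SE, adjusted p = 4.78e-06 by edgeR with the block). Part of its exon sequence (30.0%) overlaps Tssk6 on the other strand. Ndufa8 had 20.9, 23.1 and 24.1 CPM in CD11c+ macrophages, against 13.0, 16.3 and 15.3 CPM in CD11c- macrophages (log2 change 0.59). Ndufa4 had 21.3, 22.4 and 24.8 CPM in CD11c+ macrophages, against 15.9, 16.5 and 16.5 CPM in CD11c- macrophages (log2 change 0.46). The 2 groups did not overlap for any of these 4 genes. Of the assembly factors, Ndufaf1, Ndufaf2 and Ndufaf3 were called. Ndufaf1 had the largest change, with 3.12, 4.18 and 3.03 CPM in CD11c+ macrophages, against 1.68, 2.44 and 2.13 CPM in CD11c- macrophages (log2 change 0.71). Ndufaf2 is uncertain, since 65.6% of its exon sequence overlaps a non-coding gene on the other strand. Ndufaf6 had 1.99, 1.57 and 1.64 CPM in CD11c+ macrophages, against 2.48, 1.88 and 2.05 CPM in CD11c- macrophages, lower in all 3 pairs but not called (log2 change -0.32).

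**Figure D5:**
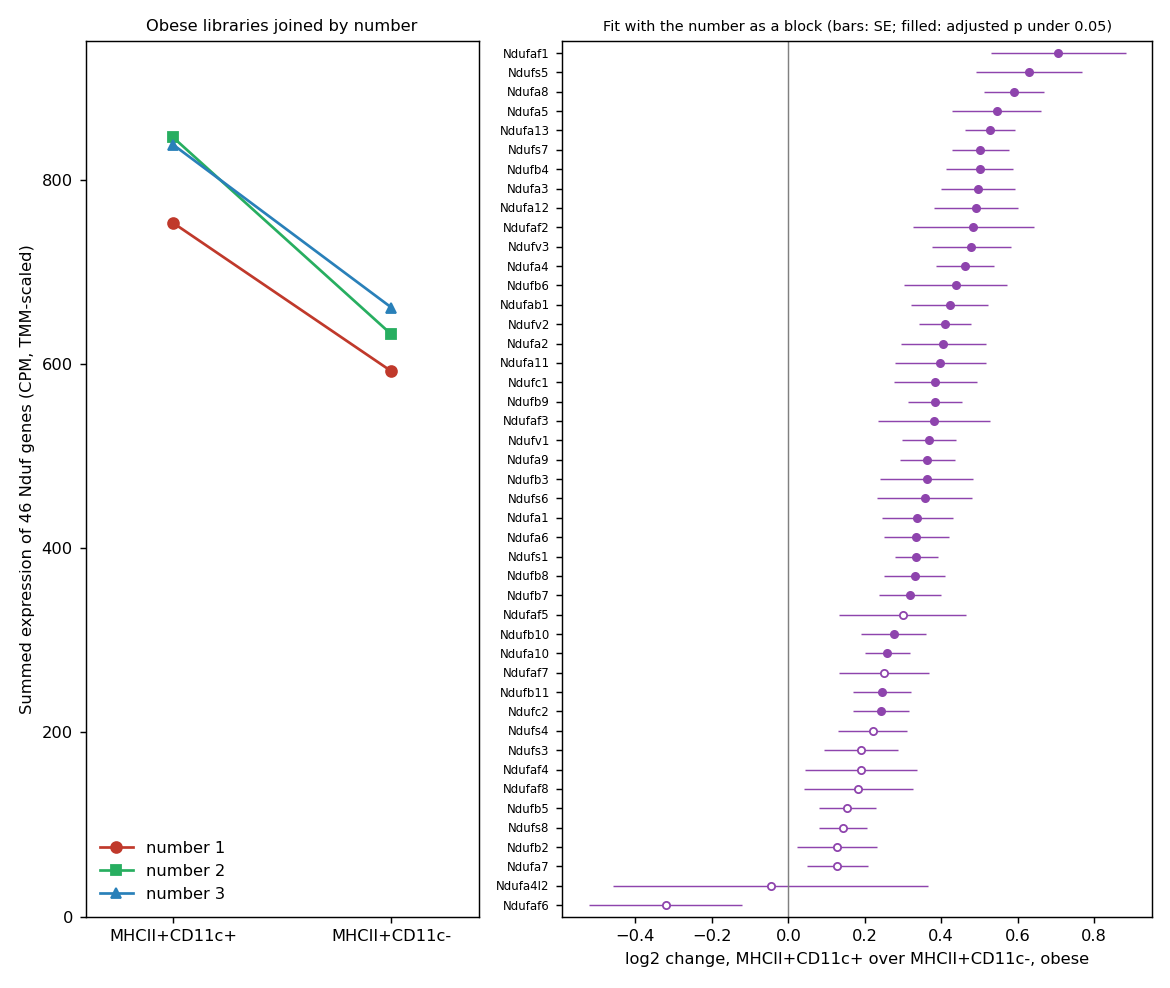
Left, summed expression of the 46 genes (CPM, TMM-scaled) in CD11c+ and CD11c- macrophages of obese mice, with lines joining libraries of equal number. Right, log2 change of 45 of the genes, CD11c+ over CD11c-, in the fit with the number as a block, with SE bars and filled points for genes called; nearly all lie above 0.

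In the block fit 6 of 7 subunits from mitochondrial DNA were higher in CD11c+ macrophages with a median log2 change of 0.33, as were 39 of 44 genes of complexes II to V (median 0.35). In the fit to all libraries 0 of 7 and 0 of 45 passed by edgeR, with medians of 0.35 and 0.38. The median of the subunits from mitochondrial DNA was thus near the 0.33 of the diet comparison in CD11c- macrophages, made with that same fit. The 8 proliferation genes summed to 769 to 949 CPM in CD11c+ and 589 to 686 CPM in CD11c- macrophages, and 5 of 8 were higher in the fit to all libraries. The 6 endothelial markers summed to 113 to 172 CPM in CD11c+ and 56.2 to 108 CPM in CD11c- macrophages, with none called. The part of these lists in the result was not tested.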

How the data were processed

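The authors deposited raw counts of reads per gene for 21 libraries in a single table. Per the submitters' processing notes, the tools were STAR 2.6.0a, Trim Galore 0.4.5, bcl2fastq, and Subread 1.4.6-p5 with its featureCounts, on GRCm38. The sources used here do not state how strand was treated. Of the 54532 gene IDs, 54495 matched GENCODE M21, 53315 with their version. 19 of the 46 genes share exon bases with another gene, 17 with one on the other strand, and such reads cannot be assigned.

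Counts were tested in edgeR 4.0.16 (R 4.3.3) by a robust quasi-likelihood fit to 7 group means, after filterByExpr and TMM scaling, 2-sided, with 14 residual degrees of freedom. Each SE is the one its F statistic implies. DESeq2 1.42.0, other scalings, no filter, fits of the compared groups alone, a block on the replicate number and leaving out each library were tried. Counting error covers the sampling of reads only.

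Titles number replicates 1 to 3. Over 8203 genes, same-numbered obese libraries deviated together, with r above 0.1 in all 3 pairs of each obese comparison and in 17 of 18 obese pairs overall. Lean numbers differ between titles and descriptions.

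The genes, lists and comparisons were chosen with earlier results of these data known. Genes named in a comparison are the 5 called genes of smallest p without overlapping libraries, the largest called rise and fall, called genes against the majority, the core subunits, Ndufa4, Ndufa4l2 and the assembly factors. Of these, 1 core subunit is not reported here by itself. Protein sequences were not used here.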

Additional observations from a re-analysis of the deposited data

Results flagged for a closer look

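The diet effect (obese over lean) differed between monocyte-derived cells and CD11c- macrophages for 4 genes, by the interaction test of edgeR with adjusted p under 0.05. The log2 difference was -1.04 for Ndufa6, whose diet effect was -0.54 in monocyte-derived cells and 0.49 in CD11c- macrophages. It was -1.30 for Ndufaf5, with diet effects of -0.42 and 0.88 in the same order. It was -0.72 for Ndufb5, with 0.23 and 0.96, and -0.68 for Ndufv1, with -0.07 and 0.61. Lean monocyte-derived cells, whose libraries agreed least, enter all 4 values. The number called ran from 0 to 6 when single libraries were left out, and was 0 without obese monocyte-derived replicate 2, obese CD11c- replicate 2 or 3, or lean CD11c- replicate 3. It was 1 without obese monocyte-derived replicate 1 or 3, obese CD11c- replicate 1, or lean CD11c- replicate 1 or 2.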

How the results depend on the processing

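In macrophages the diet result kept its direction in every fit tried, with 13 to 29 genes higher in MHCIIlow and 20 to 36 in CD11c- macrophages and 0 lower. Of the called genes, 12 of 30 in MHCIIlow and 19 of 34 in CD11c- macrophages were called in all of them. Counts from other fits, here and above, are mostly given without the number of all genes called in the same fit. That number also moved with the setting, so such counts alone do not set the 46 genes apart. TMM factors from genes of at least 10 CPM moved the median of all genes to -0.30, -0.28 and -0.23 in the diet comparisons of MHCIIlow, CD11c- and monocyte-derived cells. They then gave 17 genes higher in MHCIIlow (median 0.42) and 1 in monocyte-derived cells. Relative to the median of all genes, the 46 genes stood at 0.72 in MHCIIlow under this scaling and under the main one, and at 0.86 in CD11c- macrophages under both. Other scale factors shift the log2 changes of all genes nearly alike, so this distance was fixed in advance and tests nothing.

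Without all obese libraries of number 2, which have the highest fibroblast marker sums of their groups (2593 CPM in MHCIIlow), 13 genes were higher with diet in MHCIIlow and 24 in CD11c- macrophages. This setting was chosen after seeing the data. It left 8 higher in lean monocyte-derived over CD11c- cells, and 0 lower in the diet comparison of monocyte-derived cells, in obese monocyte-derived over CD11c- cells and in the difference of diet effects. Without a filter, 10 genes were higher and 0 lower with diet in monocyte-derived cells, 9 were higher in lean monocyte-derived over CD11c- cells, and 1 differed in diet effect. With only the compared libraries, monocyte-derived cells gave 0 higher and 0 lower with diet, lean monocyte-derived over CD11c- cells 4, the difference of diet effects 0, and CD11c+ over CD11c- 12. In the last comparison size factors of DESeq2 in edgeR gave 2 and DESeq2 5.

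The replicate block gave 34 genes higher in CD11c+ over CD11c- and 1 in obese CD11c- over MHCIIlow, as reported. Where numbers are not shown to pair samples it gave 0 higher and 0 lower with diet in monocyte-derived cells and 7 higher in lean monocyte-derived over CD11c- cells. It gave 0 for the difference of diet effects, whose obese libraries of equal number deviated together (3 of 3) and whose lean ones did so in 2 of 3. It changed no other count by over 1.5 times.

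Leaving out single libraries gave 15 to 29 genes higher with diet in MHCIIlow, lowest without lean replicate 2 or obese replicate 3 (15 each) and obese replicate 2 (17) and lean replicate 3 (19). The range was 20 to 36 in CD11c- macrophages, lowest without lean replicate 3, 0 to 16 higher and 0 to 1 lower in monocyte-derived cells, and 5 to 22 in lean monocyte-derived over CD11c- cells. It was 0 to 1 lower in obese monocyte-derived over CD11c- cells, and 0 to 6 for the difference of diet effects. Some medians near 0 changed sign: obese monocyte-derived over CD11c- ran from -0.12 to 0.01 (0.04 with TMM factors from genes of at least 10 CPM), obese CD11c- over MHCIIlow from -0.09 to 0.02, the lean one from -0.21 to 0.02, and the difference of the macrophage diet effects from -0.08 to 0.21. The cause of these changes was not tested. Depth limits Ndufa4l2 most, at 2 to 29 counts per library.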
